A study of Mus musculus with 18 samples.

Results

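Dorsal root ganglia (DRG) of Nav1.8 null mutant mice were compared with those of their own littermates across the autosomal genes, with attention to how closely each gene was bounded around no change. The comparison rests on 6 of the 18 arrays of the series, namely the 3 titled as Nav1.8 KO and the 3 titled as their wild-type controls. The other 12 arrays hold the Nav1.7 and Nav1.9 lines in the same layout of 3 KO and 3 littermate arrays each. They enter the model for the spread between arrays, and they are named below only where a difference from the Nav1.8 line was tested.

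The Nav1.8 KO mice carry a global null mutation of *Scn10a*, so that no cell type is spared, and their littermates are labelled wild type. The Nav1.9 line is likewise a global null mutant, of *Scn11a*, whereas in the Nav1.7 line *Scn9a* is deleted from sensory neurons by Cre recombinase expressed from the Advillin gene. The labels give no treatment for any group. Young adult mice of both sexes were used according to the methods of the study, but the strain, and the age and sex behind each array, are not in the labels. RNA came from whole ganglia of all spinal levels, which hold neurons, satellite glia, Schwann cells, fibroblasts, vessels and immune cells. Fewer cells of a type and less RNA per cell therefore cannot be told apart. The methods give an n of 3 with triplicate arrays, but do not say outright that each array held 1 animal, and p-values measure the spread of these samples alone, which may be technical. With 3 arrays per group the precision is limited.

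Nav1.8 is a voltage-gated sodium channel that resists tetrodotoxin and is found mainly in nociceptors, the sensory neurons that respond to tissue damage. It carries much of the inward current of their action potential, alongside Nav1.7 and Nav1.9, and it stays available in depolarized and cooled neurons. Nociceptors are often split into peptidergic neurons, which release substance P and CGRP, and non-peptidergic neurons. Enkephalins, the opioid peptides made from the *Penk* precursor, act on opioid receptors to lower transmitter release from such neurons.

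Each probe set has 1 log2 intensity in each array, so that a difference of 1 is a 2-fold change. Each gene was read from its brightest probe set. Of 18193 genes, 17404 lie on 1 of the 19 autosomes and 789 were set aside because they are X-linked, Y-linked or without an autosomal position. Medians of the arrays lay between 6.33 and 6.36. The labelled tissue was checked by its defining markers. The neurofilament gene *Nefl* read 14.50 in littermates, the peptide genes *Calcb* and *Tac1* 13.03 and 13.26, and the channel gene *Scn11a* 13.21.

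The 6 arrays differ in 1 respect that the labels do not give. *Xist*, which silences an X chromosome in female cells, was high (at least 11.97) in Nav1.8 KO replicates 2 and 3 and low (at most 5.65) in Nav1.8 KO replicate 1 and in all 3 littermates. *Eif2s3y*, *Kdm5d* and *Uty*, 3 genes of the Y chromosome, went the opposite way, between 2.86 and 4.86 in *Xist*-high arrays. Many results that rest on KO replicates 2 and 3 are therefore given again with the *Xist* class as a term in the limma model (the *Xist* term). Some are given from the *Xist*-low arrays alone, which leave 1 KO array. A value given without either was not shown to hold under them. With a mean for each group in the model, the term is estimated only within groups that hold both classes. These are Nav1.8 KO and Nav1.7 KO. Their only *Xist*-low arrays are replicate 1 and replicate 2, respectively, so that the term rests on these single arrays.

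*Scn10a*, the targeted gene, was lower in every Nav1.8 KO array. Its littermate values were 9.74, 9.54 and 8.96, and its KO values were 7.86, 7.89 and 7.76. The groups did not overlap, and littermate replicate 3 was the lowest of its group. The mean was 9.41 ± 0.41 in littermates against 7.84 ± 0.07 in KO DRG (SD, n = 3 arrays), a decrease of 2.98-fold (95% interval of the log2 difference -1.86 to -1.29, adjusted p = 5.40e-05 from limma). In the 12 arrays of the other lines *Scn10a* lay between 8.98 and 9.66. A limma fit of the 6 arrays alone gave the same difference and did not pass (adjusted p = 0.306). The *Xist*-low arrays, with 1 KO array, gave -1.55 (adjusted p = 0.298). *Scn10a* is read by 1 probe set, whose position relative to the part removed by the mutation is not given in the sources used here, so that the remaining level of 7.84 is no measure of intact transcript.

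**Figure D1:**
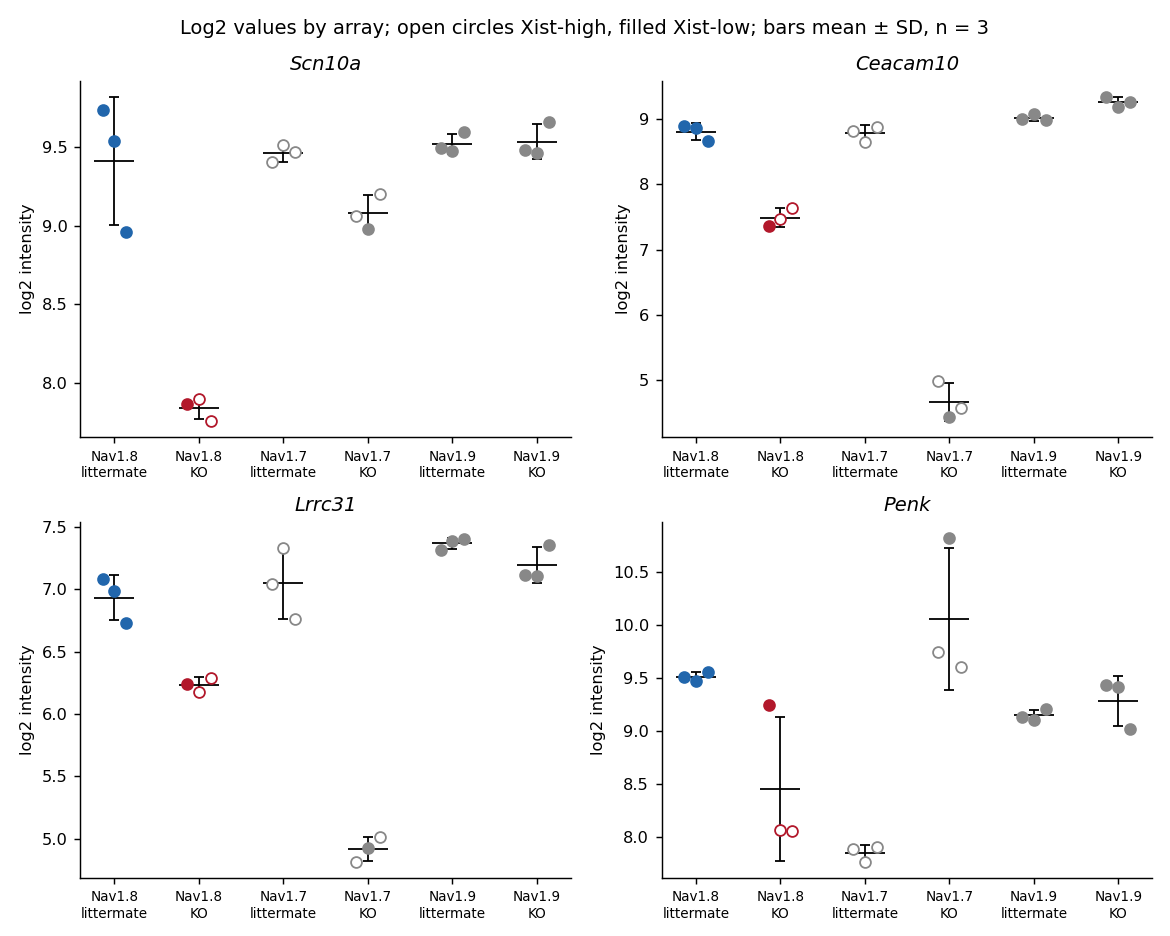
Log2 intensity (y axis) of *Scn10a*, *Ceacam10*, *Lrrc31* and *Penk* in all 18 arrays by group (x axis), with group mean and SD (n = 3 arrays), open circles for *Xist*-high and filled circles for *Xist*-low arrays. *Scn10a* is lowest in the 3 Nav1.8 KO arrays, *Ceacam10* and *Lrrc31* lie between the littermates and the Nav1.7 KO arrays, and *Penk* is low in Nav1.8 KO replicates 2 and 3 and in the Nav1.7 littermates, all of them *Xist*-high.

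Beside the targeted gene, 2 autosomal genes changed at an adjusted p under 0.05 from limma, and both fell. The 3 calls are 0.0172% of the 17404 genes tested, and 0 genes rose (465, or 2.67%, at an unadjusted p under 0.05). Without littermate replicate 3 there were 5 calls. *Ceacam10*, a member of the carcinoembryonic antigen family of adhesion proteins, read 8.90, 8.86 and 8.67 in littermates and 7.36, 7.47 and 7.64 in KO DRG. Every KO array was below every littermate array. It fell 2.50-fold (adjusted p = 5.40e-05 in limma, log2 difference -1.32 with a standard error of 0.115), which bounds the decrease between 2.11-fold and 2.96-fold. A second probe set, with a level of 8.40 in littermates, fell by 1.42 (adjusted p = 0.0220 over all probe sets), while the remaining one read 3.94 and 3.89, no brighter than an absent transcript. The log2 fold change of *Ceacam10* was -1.50 under the *Xist* term and -1.45 in *Xist*-low arrays, and it passed without any 1 of the 6 arrays (-1.39 to -1.25).

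The other gene was *Gm26553*, an uncharacterized locus. It fell 1.21-fold, from 3.86, 3.93 and 3.87 to 3.56, 3.61 and 3.64 (adjusted p = 0.0480), with no overlap. Both groups sit at the level of an absent transcript, and the call was lost without any 1 of the 6 arrays (adjusted p = 0.0548 to 0.331).

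*Lrrc31*, which encodes a leucine-rich repeat protein, was the next gene by p-value among those that the study names. It read 7.08, 6.99 and 6.73 in littermates and 6.24, 6.18 and 6.29 in KO DRG, with no overlap. The log2 fold change of -0.70 (95% interval -0.95 to -0.45) did not pass (adjusted p = 0.106, limma), but stayed at -0.69 under the *Xist* term and at -0.70 in *Xist*-low arrays. It passed under array weights (adjusted p = 0.0321), with a trended and robust prior (0.0380) and without littermate replicate 3 (0.0407).

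*Penk* was low in 2 of the 3 KO arrays. The littermates read 9.51, 9.47 and 9.56 and the KO arrays 9.24, 8.06 and 8.05. KO replicates 2 and 3, the *Xist*-high arrays, stand apart from the 4 *Xist*-low arrays of the line. The log2 fold change of -1.06 (95% interval -1.68 to -0.44) did not pass (adjusted p = 0.463, limma). In the other lines *Penk* read 7.77 to 7.90 in the *Xist*-high Nav1.7 littermates and 9.01 to 9.43 in the *Xist*-low Nav1.9 arrays. Over the 15 arrays outside the Nav1.7 KO group, the 5 *Xist*-high arrays lay between 7.77 and 8.06 and the 10 *Xist*-low arrays between 9.01 and 9.56. The Nav1.7 KO arrays, of which 2 are *Xist*-high, read 9.60 to 10.82. Under the *Xist* term the log2 fold change was -0.28 (adjusted p = 0.996), and the *Xist* term itself was -1.17 (adjusted p = 1.03e-05). That value is drawn from the Nav1.8 KO and Nav1.7 KO groups alone. In *Xist*-low arrays the log2 fold change was -0.27. *Penk* was thus not higher in any Nav1.8 KO array than in any littermate array. The study also measured *Penk* by qPCR in lumbar DRG with the sexes kept apart. It reported no difference between female and male wild-type mice, and no change in Nav1.8 KO mice of either sex.

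*Smr2*, a submaxillary gland gene that the study also names, was lower by 0.43 (9.61, 9.62 and 9.51 against 9.32, 9.01 and 9.10, adjusted p = 0.495 in limma). The *Xist*-high KO replicates had the lowest values. Under the *Xist* term the difference was -0.16. The other probe sets of *Smr2* were lower by 0.71 (8.80 in littermates, adjusted p = 0.425 over all probe sets) and by 0.42 (6.36 in littermates).

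Upstream sequence is shown for *Scn10a*, *Ceacam10* and *Lrrc31*. Each had an unadjusted p under 0.01 in limma and a change over 1.5-fold, with and without the *Xist* term. *Sprr1a* and *Atf3*, which also fell without overlap, were not looked up. The sequences are the 250 bases before the annotated start, 5′ to 3′ on the strand of the gene, from RefSeq on GRCm38.p6. Capitals mark TGGAAA or its reverse complement TTTCCA, the core letters bound by NFAT factors, which carry calcium signals to the nucleus and belong to the same family as the tonicity factor NFAT5.
Scn10a (chr9:119719033-119719282, minus strand): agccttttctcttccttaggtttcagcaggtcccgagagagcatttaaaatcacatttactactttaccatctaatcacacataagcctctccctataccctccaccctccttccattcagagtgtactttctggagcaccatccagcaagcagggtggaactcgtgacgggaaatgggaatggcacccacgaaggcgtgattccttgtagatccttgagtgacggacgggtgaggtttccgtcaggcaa
Ceacam10 (chr7:24776917-24777166, plus strand): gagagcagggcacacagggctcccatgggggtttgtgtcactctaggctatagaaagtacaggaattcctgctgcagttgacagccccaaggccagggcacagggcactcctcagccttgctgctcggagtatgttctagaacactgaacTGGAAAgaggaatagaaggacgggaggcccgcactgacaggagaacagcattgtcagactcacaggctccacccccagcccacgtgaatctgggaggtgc
Lrrc31 (chr3:30699844-30700093, minus strand): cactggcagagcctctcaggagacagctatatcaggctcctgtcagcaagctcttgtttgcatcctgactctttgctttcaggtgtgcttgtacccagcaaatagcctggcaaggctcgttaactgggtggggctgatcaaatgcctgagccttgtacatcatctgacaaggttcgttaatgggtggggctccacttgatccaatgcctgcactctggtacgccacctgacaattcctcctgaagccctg
*Ceacam10* holds the motif once, starting at position -100 counted from the start site, and the windows of *Scn10a* and *Lrrc31* hold these letters on neither strand. Of 31396 autosomal promoter entries, 18.6% hold it, so a single match among 3 windows is a description of the letters and not a site.

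At looser thresholds, an unadjusted p under 0.01 with a change over 1.5-fold, 10 autosomal genes passed, or 0.0575% of those tested. The 6 lower ones were *Scn10a*, *Ceacam10*, *Penk*, *Lrrc31*, *Qrfpr* and *Eppin*, and the 4 higher ones were *Cd163*, *F3*, *Klf15* and *Plod2*. Of these 10, only *Scn10a*, *Ceacam10* and *Lrrc31* kept both a p under 0.01 and a change over 1.5-fold under the *Xist* term. *Qrfpr*, a receptor of the RFamide peptide QRFP, read 5.0, 4.76 and 4.83 against 4.62, 3.94 and 3.80, and its log2 fold change went from -0.74 to -0.38 with that term. Its values lie near or below 4.86, the highest reading of an absent transcript, so that their difference is uncertain. *Cd163*, the haptoglobin-haemoglobin scavenger receptor of macrophages, read 5.73, 5.72 and 6.02 against 6.22, 7.2 and 6.76. Its difference of 0.90 went to 0.32. *Plod2*, which hydroxylates collagen lysines, went from 0.66 to 0.26, *F3*, the tissue factor that starts coagulation, from 0.78 to 0.38, and *Klf15*, a glucocorticoid-induced transcription factor, from 0.74 to 0.51. In each of these 4 higher genes KO replicate 2 was the highest array. The count of 10 became 24 without littermate replicate 3, 28 without KO replicate 1 and 6 without KO replicate 3.

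Other large non-overlapping differences behaved in both ways. *Dppa2* (-0.46), *Wfdc2* (-0.47) and *Ankrd33b* (-0.54) were as low or lower under the *Xist* term (-0.48, -0.60 and -0.65), and *Slc51a*, a subunit of the organic solute transporter, went from 0.41 to 0.60. A second probe set of *Ankrd33b* was lower by 0.53. *Id1*, *Prok2*, *Crabp2*, *Rasl10a* and 6430553K19Rik were higher by 0.41 to 0.51, and by 0.16 to 0.35 with the term. When probe sets with names ending in a_at, s_at or x_at were left out, *Prok2* was at -0.064. That value comes from another of its probe sets, at 3.72 in littermates. The levels of *Prok2* (4.07 in littermates and 4.52 in KO DRG) and of *Dppa2* (5.32 and 4.85) are ones that an absent transcript can reach or nearly reach. None of these passed an adjusted p of 0.05 (0.345 to 0.495).

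Small differences leaned towards lower values. The log2 fold change was below 0 for 57% of autosomal genes, with a median of -0.01, and 931 genes (5.35%) were lower and 465 (2.67%) higher at an unadjusted p under 0.05. KO and littermate arrays did not overlap for 13.8% of genes (8.99% lower and 4.79% higher). Under the *Xist* term 4.68% of genes had a p under 0.05, and 447 of the 1396 genes at that level before the term were still there.

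Most autosomal genes were bounded tightly. For 17028 of 17404 genes (97.8%) the whole 95% interval of the log2 fold change lay within 1.5-fold in either direction, for 12570 (72.2%) within 1.2-fold and for 17306 (99.4%) within 2-fold. The margin of the interval on either side of the estimate had a median of 0.15 on the log2 scale, or 1.11-fold, and an upper decile of 1.18-fold. The largest change that the interval allowed was 1.15-fold for the median gene and 1.71-fold at the 99th percentile. A test of equivalence, which asks whether a change as large as 1.5-fold can be rejected in both directions, passed for 17138 genes (98.5%) at an adjusted p under 0.05 from limma. With intervals widened to cover all genes at once by the Bonferroni method, 55.7% stayed within 1.5-fold. Of the 1396 genes at an unadjusted p under 0.05, 1309 were bounded within 1.5-fold, a smaller share than over all genes.

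**Figure D2:**
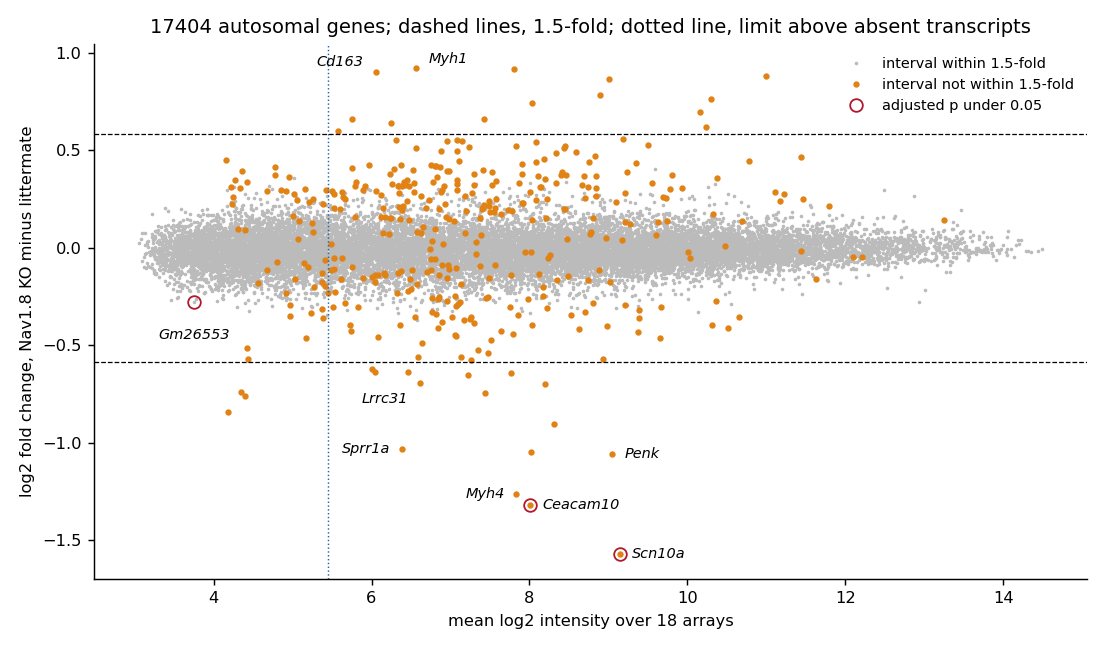
Log2 fold change, Nav1.8 KO minus littermate (y axis), against the mean log2 intensity over 18 arrays (x axis) for 17404 autosomal genes, with grey points for genes whose 95% interval lies within 1.5-fold, orange points for the 376 others and red rings for the 3 genes at an adjusted p under 0.05; the dotted line marks the level of 5.44 described beside the bounds by brightness. Most points lie between the dashed lines at 1.5-fold, and 32 estimates lie beyond them.

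The bounds held when arrays or terms were changed. The share within 1.5-fold was 97.1% under the *Xist* term, 96.3% in *Xist*-low arrays alone and 96.7% to 97.6% without any 1 array of the line. The share within 1.2-fold was less steady, at 58.4% with the *Xist* term and 46.9% in *Xist*-low arrays. Of the genes bounded within 1.5-fold, 16822 were so with the *Xist* term too.

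Brightness set how close the bounds were. The margin was smallest for genes with a mean level of 12 or over (1.06-fold, with 96.8% bounded within 1.2-fold) and largest between 5 and 6 (1.14-fold, 52.8%). The share bounded within 1.5-fold was lowest between 6 and 7 (94.7%). Below a level of 4 every gene was bounded within 1.5-fold, but such a bound says little, since Y-linked genes read up to 4.86 in *Xist*-high arrays where their transcripts are absent. A limit 1.5-fold above that reading, 5.44, was therefore set. Above it lay 13030 genes, and 97.5% of them were bounded within 1.5-fold and 75.4% within 1.2-fold. The 4374 genes at or below it (98.8% bounded) may read little of their own transcript.

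**Figure D3:**
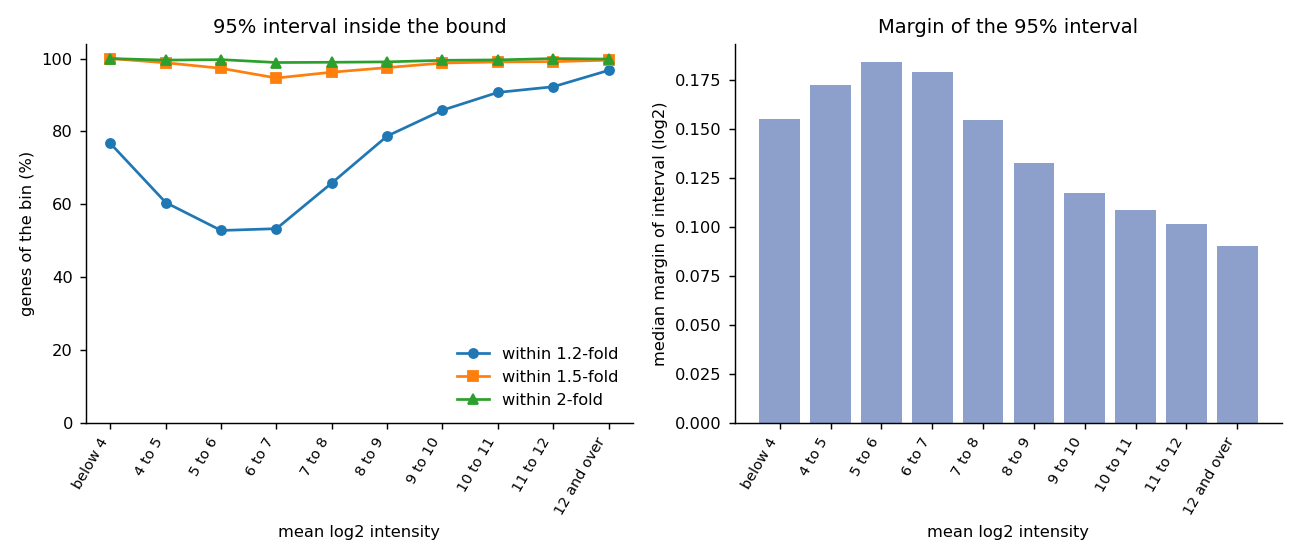
Left, percent of autosomal genes whose 95% interval lies within 1.2-fold, 1.5-fold and 2-fold (y axis) by bin of mean log2 intensity (x axis). Right, median margin of the interval on either side of the estimate, on the log2 scale, in the same bins, from 0.18 between levels 5 and 6 to 0.09 at 12 and over.

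Of the 376 genes that were not bounded within 1.5-fold, 344 had an estimate inside 1.5-fold. The interval included 0 for 289 of the 376 and excluded it for 87. The widest were genes of skeletal muscle. *Myh4*, a fast myosin heavy chain, could differ by up to 12.5-fold (8.24 ± 0.99 in littermates and 6.97 ± 1.39 in KO DRG, SD, n = 3 arrays), and *Myh1*, *Tnnc2*, *Myl1*, *Ttn* and *Acta1* followed. The mean level of 9 muscle, fat and blood genes was 8.14, 7.94 and 7.32 in littermates and 7.70, 7.97 and 6.31 in KO DRG. The lowest array of each group was replicate 3, and 1 of the 9 genes was bounded within 1.5-fold. Other genes with wide intervals were *Sst* (3.27-fold), *Mt2*, a metallothionein (level 10.82 in littermates and 11.70 in KO DRG), and *Zbtb16* (7.57 and 8.49), both of which glucocorticoids are known to induce.

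Among the sodium channels, *Scn10a* was the one that moved. Of 8 alpha subunit genes measured, 7 were bounded within 1.5-fold and 5 within 1.2-fold, and the median log2 fold change was 0.00. *Scn9a* (Nav1.7) read 12.12 ± 0.03 in littermates and 12.22 ± 0.08 in KO DRG, a log2 fold change of 0.10 (95% interval -0.02 to 0.22). This is its brightest probe set, which ends in x_at. Its other probe sets differed by 0.17 (10.23 in littermates), -0.003 (7.64), -0.06 (7.32) and 0.0007 (5.85), with standard errors of 0.08 to 0.16. *Scn11a* (Nav1.9), which neighbours *Scn10a* on chromosome 9, read 13.21 ± 0.03 and 13.25 ± 0.08, a log2 fold change of 0.04 (-0.21 to 0.30), so an increase over 1.23-fold lies outside the interval. *Scn1a*, *Scn2a*, *Scn3a* and *Scn8a*, which tetrodotoxin blocks, differed by -0.10 to 0.01. *Scn7a*, the sodium-sensing Nax channel, was higher by 0.15 (adjusted p = 0.495, bounded by 1.2-fold) and by 0.11 under the *Xist* term.

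Of 12 beta subunits and channel partners on autosomes, 11 were bounded within 1.5-fold. *S100a10* (p11), which carries Nav1.8 to the membrane, read 13.50 ± 0.03 and 13.49 ± 0.02 (bounded by 1.06-fold). *Dpysl2* (CRMP2) was bounded by 1.06-fold, *Scn3b* by 1.11-fold, *Scn2b* by 1.09-fold and *Pdzd2*, which binds Nav1.8, by 1.11-fold. *Fgf11*, a fibroblast growth factor homologous factor, was the exception, at -0.35 (95% interval -0.60 to -0.10, adjusted p = 0.495). *Nedd4l*, the ubiquitin ligase that removes sodium channels from the membrane, was at 0.10 (-0.02 to 0.22).

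The opioid system was bounded except for *Penk*. *Oprm1*, the μ-opioid receptor, read 5.86 ± 0.09 in littermates and 5.74 ± 0.11 in KO DRG (log2 fold change -0.13, 95% interval -0.33 to 0.07). *Oprl1*, the nociceptin receptor, was at -0.09, *Oprk1* at 0.02 and *Oprd1* at 0.02. *Oprd1* (4.80 in littermates) and *Pdyn* (4.10) have levels that an absent transcript can reach. The precursors *Pdyn*, *Pomc* and *Pnoc* were higher by 0.09 to 0.13, and 0 of these 7 genes passed in limma (0 at an unadjusted p under 0.05). Their intervals allow at most 1.26-fold.

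**Figure D4:**
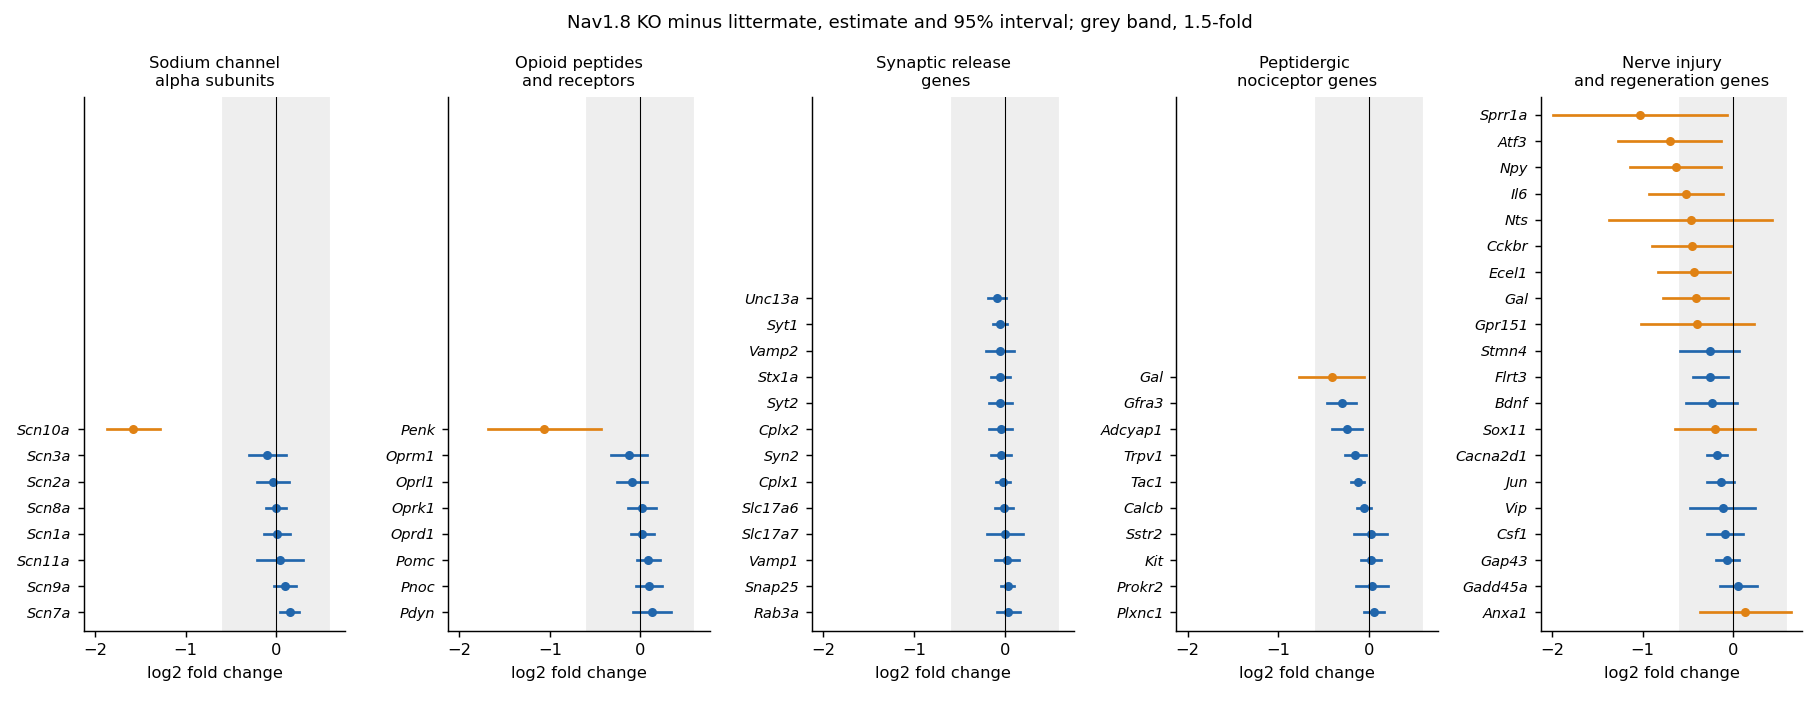
Log2 fold change, Nav1.8 KO minus littermate (x axis), with its 95% interval for each autosomal member of 5 gene lists, blue where the interval lies within 1.5-fold (grey band) and orange where it does not. *Scn10a* and *Penk* stand alone in their lists, all 13 synaptic release genes sit inside the band, and 18 of 20 nerve injury genes lie left of 0.

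Genes of synaptic release and excitability were bounded to different degrees, beside a median allowed change of 1.15-fold over all autosomal genes. All 13 autosomal synaptic release genes measured were bounded within 1.2-fold (median allowed change 1.11-fold), with *Snap25* at 13.54 ± 0.02 and 13.58 ± 0.01 and *Syt1* at 12.16 ± 0.03 and 12.11 ± 0.01. All 33 autosomal potassium channel genes were within 1.5-fold and 25 within 1.2-fold, and 0 passed in limma (2 at an unadjusted p under 0.05, *Kcnv1* at -0.23 and *Kcnt2* at 0.19). All 12 purinergic, acid-sensing and Piezo channel genes were within 1.5-fold. Of 13 calcium channel genes, 12 were within 1.5-fold (median allowed change 1.21-fold) and 11 were below 0 (median -0.09). *Cacna2d1*, the α2δ subunit to which gabapentin binds, was lower by 0.18 (95% interval -0.29 to -0.07, adjusted p = 0.491). *Cacna2d2*, which lies within 20 Mb of *Scn10a*, was not bounded (10.03, 9.94 and 11.16 in littermates against 11.17, 11.14 and 11.11, at most 2.74-fold).

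Markers of sensory neuron subsets gave no call. Over the lists, 0 genes passed an adjusted p of 0.05 in limma beside *Scn10a*. Of 10 peptidergic genes, 6 had a log2 fold change below 0 and 4 above, beside 57% below 0 over all autosomal genes. The highest was at 0.05. At an unadjusted p under 0.05 in limma, 5 were lower, against 5.35% of all autosomal genes, and 0 higher (2.67%). Of the 10, 4 were lower without overlap (8.99%). *Tac1*, the substance P precursor, read 13.26 ± 0.02 and 13.14 ± 0.04 (-0.12, 95% interval -0.20 to -0.05, adjusted p = 0.491), *Trpv1*, the capsaicin receptor, was at -0.15 (-0.27 to -0.04) and *Gfra3*, the artemin receptor, at -0.30 (-0.46 to -0.14). *Calcb*, a CGRP gene, was at -0.06 (-0.14 to 0.02). Each of these 4 intervals lies within 1.5-fold. *Gal*, the galanin gene, was the 1 peptidergic gene that was not bounded (-0.41, -0.77 to -0.05). The count of lower genes at that unadjusted p was 2 to 5 without any 1 array of the line. It was 4 under the *Xist* term, beside 517 of 17404 autosomal genes. The median of the list was -0.09 (-0.13 with the term and -0.11 in *Xist*-low arrays).

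Of 12 autosomal TRP channels, 4 were lower at an unadjusted p under 0.05, against 5.35% of all autosomal genes (*Trpc4*, *Trpv1*, *Trpa1* and *Trpv2*) and all 12 were bounded within 1.5-fold. *Trpa1*, the mustard oil receptor, was at -0.20 (95% interval -0.35 to -0.04) and *Trpc4*, at a lower level, at -0.27 (-0.38 to -0.16, adjusted p = 0.161). The count was 3 under the *Xist* term (beside 517 of 17404 autosomal genes) and 2 to 4 without any 1 array. The median of the list was -0.02, and -0.08 in *Xist*-low arrays, which leave 1 KO array.

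Of 15 non-peptidergic genes, 11 had a log2 fold change above 0 and 4 below. At an unadjusted p under 0.05, 2 were higher (2.67% of all autosomal genes) and 0 lower, and 0 were higher under the *Xist* term. The median of the list was 0.07, with 0.03 under the term and -0.02 in *Xist*-low arrays. *P2rx3*, the ATP receptor of these neurons, was at 0.08 (95% interval -0.02 to 0.18), *Ret* at -0.01 (-0.10 to 0.07) and *Cd55* at 0.15 (0.01 to 0.30). *Runx1*, the transcription factor of the subset, was higher by 0.31 (0.03 to 0.59, adjusted p = 0.584), just past the bound. *Sst*, *Nts*, *Nppb* and *Il31ra*, markers of itch neurons or of nearby subsets, were the 4 with wide intervals, and *Nts* was lower without overlap (-0.47, 95% interval -1.37 to 0.43). Their largest allowed changes were 2.08-fold to 3.27-fold. These intervals use the spread within the groups of all lines, so they can be wide where the Nav1.8 arrays lie close together. The SD in littermates and KO DRG was 0.15 and 0.05 for *Nts* (standard error of the difference 0.42). It was 0.17 and 0.16 for *Nppb* (0.56) and 0.10 and 0.17 for *Il31ra* (0.46). For *Sst* the SD was larger, at 0.44 and 0.32 (0.55). All 6 genes of C-fibre low-threshold mechanoreceptors and all 15 of myelinated mechanoreceptors and proprioceptors were within 1.5-fold, among them *Th* (9.91 ± 0.04 and 9.73 ± 0.10), *Nefh* (13.83 ± 0.06 and 13.81 ± 0.06) and *Nefl* (14.50 ± 0.04 and 14.49 ± 0.02).

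Nerve injury and regeneration genes were mostly lower. Of 20, 18 had a log2 fold change below 0 and the median was -0.26, against -0.01 over all autosomal genes. At an unadjusted p under 0.05, 9 of 20 were lower (5.35% of all genes), 12 of 20 did not overlap and were lower (8.99%), and 0 passed the adjusted test in limma. *Atf3*, a transcription factor that axotomy induces in DRG neurons, read 8.48, 8.33 and 8.60 in littermates and 8.11, 7.81 and 7.38 in KO DRG. No array overlapped, and the log2 fold change was -0.70 (95% interval -1.27 to -0.13, adjusted p = 0.541). *Sprr1a*, a gene of regrowing axons, read 6.36, 6.13 and 7.29 against 5.91, 5.49 and 5.28. Littermate replicate 3 was the highest array, and the difference of -1.03 could be as small as -0.07 or as large as -1.99. *Npy* read 6.3, 6.03 and 6.31 against 5.64, 5.35 and 5.74 (-0.64), and *Gal* 10.82, 10.80 and 10.74 against 10.49, 10.34 and 10.28. The *Xist* term gave -0.48 for *Atf3*, -0.87 for *Sprr1a*, -0.57 for *Npy* and -0.47 for *Gal*. Among these, the unadjusted p in limma was then under 0.05 for *Gal* alone (0.0419, with 0.0750 to 0.159 for the others). *Gap43*, which is abundant in uninjured DRG too, was bounded by 1.14-fold (11.62 ± 0.02 and 11.55 ± 0.06). The mean level over the 20 genes was 8.26, 8.17 and 8.30 in littermates and 8.0, 7.88 and 7.89 in KO DRG. Under the *Xist* term the median was -0.23. At an unadjusted p under 0.05 with the term, 3 of the 20 were lower, beside 517 of 17404 autosomal genes. In *Xist*-low arrays, with 1 KO array, the median was -0.22. Without any 1 array 3 to 10 genes were lower at that p (3 without KO replicate 2). Of the 20, 9 were bounded within 1.5-fold. The interval of the median member allowed a change of 1.56-fold. *Sprr1a* (-3.20) and *Atf3* (-1.83) also fell in the Nav1.9 line (adjusted p = 0.00554 and 0.00711 in limma), as did other members named below. Lower values of these genes are thus not particular to the Nav1.8 line.

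Immediate early genes, which neuronal activity induces, were bounded for 16 of 17 members (*Atf3* was the other), with a median of -0.02. Of 15 sodium and tonicity response genes 14 were bounded, among them *Slc12a2*, the chloride importer NKCC1 (0.00, 95% interval -0.11 to 0.12), and *Atp1b1*, a sodium pump subunit (-0.03, -0.11 to 0.05). *Sgk1*, the glucocorticoid-induced kinase, was higher by 0.62 (0.10 to 1.14, adjusted p = 0.555) and by 0.27 under the *Xist* term.

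The other cell types of the ganglion were bounded to different degrees. All 10 satellite glia genes and all 9 Schwann cell genes on autosomes were within 1.5-fold, for example *Fabp7* (-0.05, 95% interval -0.22 to 0.12) and *Mbp* (-0.03, -0.13 to 0.08). Fibroblast and meningeal genes had a median of 0.14, with 11 of 12 above 0, 8 of 12 within 1.5-fold and a mean level of 9.69, 9.74 and 9.73 in littermates and 9.66, 9.98 and 9.95 in KO DRG. KO replicates 2 and 3, the *Xist*-high arrays, held the 2 highest values, and the median was -0.05 under the *Xist* term. Macrophage and immune genes showed the same arrays on top (7.52, 7.99 and 7.85 in KO DRG, 7.65 to 7.77 in littermates), with a median of 0.03 that went to -0.17. Their part in the results above was not tested. Of 10 housekeeping genes 10 were within 1.5-fold, and *Actb* was bounded by 1.09-fold.

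Genes near the targeted locus were looked at because alleles linked to *Scn10a* travel with the mutation in a cross. Within 10 Mb lay 156 measured genes, of which 0 passed in limma and 17 (10.9%, against 8.02% of all autosomal genes) had an unadjusted p under 0.05. Of these 17, 13 were lower and 4 higher, by at most 0.21 on the log2 scale, and *Ptpn23* (-0.15) had the smallest p. Of the 156, 150 were bounded within 1.5-fold. The count at that unadjusted p was 3 under the *Xist* term, where 4.68% of all autosomal genes were at that level. It was 7, 9 and 10 without littermate replicate 1, KO replicate 2 and KO replicate 3 (5.71%, 6.04% and 4.68% of all autosomal genes). Within 20 Mb, 15.2% of 297 genes had an unadjusted p under 0.05 in limma, and *Cacna2d2* had the largest difference (0.76).

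The bounds were then set beside the Nav1.7 line, in which 763 autosomal genes (4.38%) passed the adjusted test. Of 111 of these that changed over 1.5-fold there, 99 (89.2%) were bounded within 1.5-fold in Nav1.8 KO DRG, a smaller share than the 97.8% of all autosomal genes. The difference between the effects of the lines passed for 94 of the 111, of which 85 were also bounded. The median size of the log2 fold change of the 111 genes in the Nav1.8 line was 0.09, beside 0.05 over all autosomal genes. Their size in the Nav1.7 line was fixed by how they were chosen. The test of the difference uses those same Nav1.7 values. The 94 passes, and the p-values of single genes that follow, therefore come in part from that choice. *Th*, a catecholamine enzyme, was at -2.26 in Nav1.7 KO and -0.17 (95% interval -0.41 to 0.06) in Nav1.8 KO DRG (adjusted p of the difference 3.07e-06), *Rgs8*, a regulator of G-protein signalling, at -2.09 and -0.10 (1.05e-08), and *Gm16364* at -2.97 and -0.16 (8.37e-10). The 12 that were not bounded included *Ceacam10* and *Lrrc31*, which were lower in both lines and less so in Nav1.8 KO DRG (differences of the log2 fold changes 2.81 and 1.43, adjusted p = 1.02e-07 and 0.000186). *Penk* was at 2.20 in the Nav1.7 line and -1.06 in the Nav1.8 line. With *Xist* classes unevenly spread over both lines, the count of differences over all genes went from 376 (2.16%) to 109 under the *Xist* term, and to between 204 and 223 without littermate replicate 1 or 2 or KO replicate 2 or 3.

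**Figure D5:**
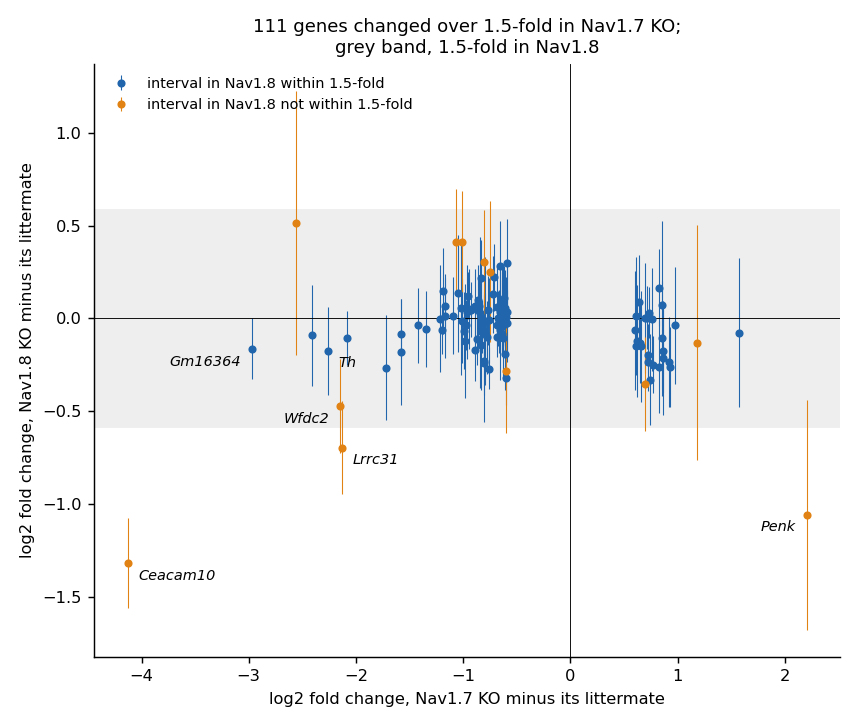
Log2 fold change in Nav1.8 KO DRG with its 95% interval (y axis) against that in Nav1.7 KO DRG (x axis) for the 111 autosomal genes that passed an adjusted p of 0.05 with a change over 1.5-fold in the Nav1.7 line. The 99 blue genes have an interval within 1.5-fold in the Nav1.8 line (grey band), and *Ceacam10*, *Lrrc31* and *Penk* lie outside it.

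In the Nav1.9 line 84 autosomal genes (0.483%) passed, 26 of them with a change over 1.5-fold. Of these 26, 17 (65.4%, against 97.8% of all autosomal genes) were bounded within 1.5-fold in Nav1.8 KO DRG, and the difference between the lines passed for 2. One was *Scn11a*, the gene targeted in that line (difference 1.9, adjusted p = 7.22e-05), and the other was 2610507I01Rik (1.40 in the Nav1.9 line and 0.06, 95% interval -0.11 to 0.22, in the Nav1.8 line). Over all genes, 7 differences (0.0402%) passed. The members of the nerve injury list among these 26 all fell in the Nav1.9 line. They were *Sprr1a* (-3.20), *Atf3* (-1.83), *Gpr151* (-1.60), *Npy* (-1.48), *Cckbr* (-1.07) and *Bdnf* (-0.75). The difference between the lines did not pass for any of them (adjusted p = 0.365 to 0.556 in limma, with 0.408 for *Atf3*).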

How the data were processed

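Values were taken as the authors deposited them, as log2 intensities per probe set from Affymetrix Expression Console (named in the processing notes of the submitters). The log2 unit was read from the values. The summary method and the normalization between arrays are not given in the sources used here, and detection calls were not used, so background is known from absent transcripts alone. Groups came from the sample titles and genotype labels, since the source name field reads as a littermate control throughout the series.

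Of 45101 probe sets, 64 controls were left out. By the platform annotation 34945 have 1 gene, 932 several and 9160 are not listed. Each gene was read from the brightest probe set named for it alone, and 9183 genes have 1 such probe set. Chromosomes came from RefSeq (GRCm38.p6). A linear model with 6 group means was fitted to all 18 arrays (lmFit and eBayes of limma 3.58.1, R 4.3.3), with 12 residual and 3.44 prior degrees of freedom. Benjamini-Hochberg adjustment ran over all 18193 genes. Counts are over autosomal genes. Intervals are 95% intervals of the same fit, and equivalence was tested by 2 one-sided moderated tests against 1.5-fold, adjusted over all genes. An exact permutation test of 3 arrays against 3 cannot go below 0.1.

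Lists, members and tests were chosen with earlier results of these data known. Named genes are *Scn10a*, the genes that the study names, genes at an adjusted p under 0.05, up to 10 increases and 10 decreases at an unadjusted p under 0.01 with non-overlapping arrays, up to 3 genes per list by p and 3 by level, all sodium channel and opioid genes, and genes within 10 Mb of *Scn10a* at an unadjusted p under 0.05. Genes with wide intervals and genes of the other lines were named after their values were seen. Alternatives were median centring, quantile normalization, the 6 arrays alone, removal of genes below the 0.4 quantile of level, the mean of probe sets, probe sets ending in a_at, s_at or x_at left out, array weights, a prior with trend and robust fitting, a block for replicate number, the *Xist* class as a term or *Xist*-low arrays alone, adjustment over autosomal genes, an ordinary t test on 6 arrays, other thresholds and leaving out each array. The code was tested on simulated data.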

Additional observations from a re-analysis of the deposited data

Results flagged for a closer look

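Some effects in the Nav1.8 line differed from those in another line by the test of the difference (log2 fold change in the Nav1.8 line minus that in the other line, limma, adjusted over all genes, 3 arrays per group). Against the Nav1.7 line the differences were -1.19 for *Scn10a* (adjusted p = 0.00289), 2.81 for *Ceacam10* (1.02e-07), 1.43 for *Lrrc31* (0.000186), -0.92 for *Smr2* (0.0261), -3.26 for *Penk* (0.000409), -0.81 for *Ankrd33b* (0.0313), 1.67 for *Wfdc2* (4.33e-05), 1.43 for *Slc51a* (0.000409) and 1.48 for 6430553K19Rik (0.000409). *Xist* classes differ between KO and littermate arrays in both of these lines, in opposite directions. Among the genes listed here, *Penk*, *Smr2* and 6430553K19Rik did not overlap between the classes outside the Nav1.7 KO group. The share over all autosomal genes is not given here, and these genes were named for their change. Under the *Xist* term the count of such differences over all autosomal genes was 109, against 376 without it.

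Against the Nav1.9 line, whose 6 arrays are all *Xist*-low, the differences were -1.59 for *Scn10a* (adjusted p = 0.00203), -1.56 for *Ceacam10* (0.000423) and 1.9 for *Scn11a* (7.22e-05). *Scn10a* and *Scn11a* are the targeted genes of these lines.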

How the results depend on the processing

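The direction of *Scn10a* held under every alternative run. Its log2 fold change was -1.57 with the 6 arrays alone (adjusted p = 0.306), -1.55 in *Xist*-low arrays (0.298) and -1.57 by the ordinary t test of 6 arrays (0.640), none of which passed, and -1.80 to -1.41 without any 1 array. The 3 genes at an adjusted p under 0.05 became 1 with the 6 arrays alone, 1 in *Xist*-low arrays, 0 by the ordinary t test (1265 at an unadjusted p under 0.05) and 2 to 5 without any 1 array (5 without littermate replicate 3). The 10 genes at the looser thresholds became 6 with dim probe sets left out, 21 with array weights, 6 in *Xist*-low arrays, 3 by the ordinary t test, 21 at a p under 0.05 with 1.5-fold, 93 at a p under 0.01 with 1.2-fold, and 6 to 28 without any 1 array (24 without littermate replicate 3, 28 without KO replicate 1 and 6 without KO replicate 3).

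Genes bounded within 1.5-fold numbered 10317 and genes passing the equivalence test 10380 with dim probe sets left out, because only 10544 genes were then tested, and 16831 to 16978 and 16967 to 17102 without any 1 array. Differences from the Nav1.7 line numbered 109 with the *Xist* term and 204 to 375 without any 1 array (212, 223, 220 and 204 without littermate replicates 1 and 2 and KO replicates 2 and 3), and those from the Nav1.9 line 12 with dim probe sets left out, 13 with the trended and robust prior, 2 in *Xist*-low arrays and 6 to 10 without any 1 array. Genes within 10 Mb of *Scn10a* at an unadjusted p under 0.05 numbered 10 with the 6 arrays alone, 10 with dim probe sets left out, 3 with the *Xist* term, 11 by the ordinary t test, 45 in a window of 20 Mb (of 297 genes) and 7 to 21 without any 1 array (7, 9 and 10 without littermate replicate 1 and KO replicates 2 and 3). Over all autosomal genes the shares at that p were 7.97%, 10.2%, 4.68% and 7.27% in the first 4 of these settings. *Prok2* changed sign to -0.064 with probe sets ending in a_at, s_at or x_at left out, where another probe set was read. *Ankrd33b* passed without KO replicate 2 (-0.74).

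Same-numbered arrays of the 2 groups did not deviate together (correlations 0.06, -0.12 and 0.27), so that the numbers are not taken as pairs. With a replicate block the counts were 2 genes at an adjusted p under 0.05, 14 at the looser thresholds and 17055 bounded within 1.5-fold. Signal over background limits the dim genes, whose bounds need not hold for their transcripts.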

Other observations

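Probe sets that the annotation does not tie to 1 gene were tested in the same fit. Of 10092, 0 passed an adjusted p of 0.05 in limma and 801 (7.94%) had an unadjusted p under 0.05. Of the 789 genes without an autosomal position, 0 passed in limma. At an unadjusted p under 0.05 there were 76 of the 789, beside 1396 of the 17404 autosomal genes (8.02%). The 789 include 617 X-linked and 9 Y-linked genes, and the *Xist* classes differ between KO and littermate arrays. This count is therefore not read as an effect of the mutation.

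The *Xist* term of the model passed an adjusted p of 0.05 for 2 autosomal genes, *Penk* (-1.17, standard error 0.0914) and *Ppic*, a cyclophilin (0.47, adjusted p = 0.0308 in limma), the latter named after its value was seen. The term rests on the Nav1.8 KO and Nav1.7 KO groups, the only groups with both classes. Outside the Nav1.7 KO group the 5 *Xist*-high arrays and the 10 *Xist*-low arrays did not overlap for *Penk*, *Smr2*, *Qrfpr*, *Plod2* and 6430553K19Rik among the genes named for their change. The share of all autosomal genes that split in this way is not given here. Many of the genes looked at were named because KO and littermate arrays did not overlap. That choice favours such a split, since KO replicates 2 and 3 are *Xist*-high and all 3 littermates *Xist*-low. The classes were noticed in these data, and the sex of the animals is not in the labels.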
